A study of Mus musculus with 8 samples.

Results

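DNA replication and mitosis genes, 37 in all, were read out of the deposited counts for 38293 Ensembl genes: 16 genes that license, start and carry out DNA synthesis and 21 genes of chromosome segregation and cell division. The members were listed by symbol and all 37 were found in the table. The libraries came from ventricular tissue, a mix of left and right ventricle, of mice at 8 weeks of age. Heterozygotes (HET, 4 libraries; genotype PKP2 c.1755A/WT in the sample labels, c.1755delA/WT in the series title) were compared with wild type (WT, 4 libraries; PKP2 WT/WT). HET libraries carry 1 altered allele of Pkp2, the gene of the desmosomal protein plakophilin-2. The labels name no strain, sex or litter and do not say that each library is a separate animal, and p-values therefore reflect the spread between libraries alone, which may be technical.

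Cells copy their DNA once per division. The origin recognition complex, Cdc6 and Cdt1 load the Mcm helicase onto origins in G1, cyclin E with its kinase and the transcription factor E2f1 open S phase, and ribonucleotide reductase and thymidylate synthase supply the building blocks. Cyclins A and B with Cdk1 then drive mitosis, in which Aurora kinases, kinesins and the spindle checkpoint sort the chromosomes. Adult mouse heart muscle cells rarely divide, and in the adult ventricle cycling transcripts are known mainly from other cells such as endothelial cells, fibroblasts and immune cells. Bulk tissue cannot tell fewer cycling cells from less RNA per cycling cell.

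Promoters of cell cycle genes are known by the motifs that recruit E2F, DREAM and NF-Y. Those of 7 members are shown here, 6 chosen because they hold E2F or CHR matches and Stil for its value in the counts. Windows of 300 bases, from 250 before to 50 after the RefSeq start (GRCm38.p6), were found for 30 of the 37 members. Each was searched on both strands for the E2F motif (TTTCCCGC, TTTGGCGC, TTTCGCGC or TTTGCCGC), which recruits E2F factors, for the cell cycle homology region or CHR (TTTGAA or TTCGAA), which is bound by the DREAM and MuvB complexes, and for the CCAAT box of NF-Y. No motif holds another, but matches can overlap, as 2 E2F matches do in Mcm5 and in Mcm6. The 250 bases before the start follow, 5′ to 3′ on the gene's strand, with every match of any of the 3 motifs in capitals.
Mcm5 (replication; chr8:75109259-75109508, plus strand): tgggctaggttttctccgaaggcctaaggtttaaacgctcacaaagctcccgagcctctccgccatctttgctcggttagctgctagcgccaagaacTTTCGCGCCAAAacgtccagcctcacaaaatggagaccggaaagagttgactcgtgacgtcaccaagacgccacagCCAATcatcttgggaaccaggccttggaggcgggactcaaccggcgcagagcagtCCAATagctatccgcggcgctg
Mcm6 (replication; chr1:128359706-128359955, minus strand): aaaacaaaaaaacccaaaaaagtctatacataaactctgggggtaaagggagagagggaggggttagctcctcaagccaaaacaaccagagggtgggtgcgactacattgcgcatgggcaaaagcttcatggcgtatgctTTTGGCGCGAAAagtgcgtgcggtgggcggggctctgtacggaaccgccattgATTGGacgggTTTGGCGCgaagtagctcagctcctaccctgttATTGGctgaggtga
Mki67 (mitosis; chr7:135716380-135716629, minus strand): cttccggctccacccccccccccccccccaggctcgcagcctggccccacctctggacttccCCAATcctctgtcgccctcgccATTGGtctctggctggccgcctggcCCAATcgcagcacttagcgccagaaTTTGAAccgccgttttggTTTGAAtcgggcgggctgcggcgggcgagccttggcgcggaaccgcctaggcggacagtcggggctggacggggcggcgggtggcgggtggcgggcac
Top2a (mitosis; chr11:99024190-99024439, minus strand): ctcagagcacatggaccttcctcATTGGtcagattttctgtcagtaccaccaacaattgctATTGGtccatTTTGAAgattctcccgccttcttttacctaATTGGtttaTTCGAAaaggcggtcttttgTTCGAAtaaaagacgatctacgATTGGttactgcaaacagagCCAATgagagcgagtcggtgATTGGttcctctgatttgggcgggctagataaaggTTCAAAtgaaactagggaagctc
Kif11 (mitosis; chr19:37376132-37376381, plus strand): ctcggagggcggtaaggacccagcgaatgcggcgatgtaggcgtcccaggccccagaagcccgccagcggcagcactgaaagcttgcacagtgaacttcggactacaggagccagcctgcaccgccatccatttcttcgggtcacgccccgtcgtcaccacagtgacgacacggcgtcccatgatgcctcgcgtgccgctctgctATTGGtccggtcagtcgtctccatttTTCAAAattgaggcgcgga
Cdc20 (mitosis; chr4:118437344-118437593, minus strand): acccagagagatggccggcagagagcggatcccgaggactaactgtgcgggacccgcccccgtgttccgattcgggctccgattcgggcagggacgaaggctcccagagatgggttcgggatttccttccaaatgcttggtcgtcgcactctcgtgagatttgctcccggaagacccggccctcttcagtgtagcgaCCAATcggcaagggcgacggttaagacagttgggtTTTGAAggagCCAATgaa
Stil (mitosis; chr4:114999868-115000117, plus strand): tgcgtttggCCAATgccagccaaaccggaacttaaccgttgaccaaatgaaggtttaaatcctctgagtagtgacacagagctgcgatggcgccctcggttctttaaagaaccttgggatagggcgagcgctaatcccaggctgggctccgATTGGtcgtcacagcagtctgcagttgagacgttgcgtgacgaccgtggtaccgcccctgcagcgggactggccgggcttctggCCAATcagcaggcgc

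Among the replication members an E2F motif was found in 6 of 13 windows (46.2%), against 4% of the windows of 10843 tested genes and 2.26% of all 32851 windows in the table. For members and tested genes only the first listed window of each gene was used, whereas all 32851 windows include further ones. Mcm5 and Mcm6 above hold both E2F matches and CCAAT boxes. Among the mitosis members 1 of 17 windows (5.88%), that of Cdk1, held an E2F motif. A CHR motif was found in 12 of 17 mitosis windows (70.6%) and in 2 of 13 replication windows (15.4%), against 13.5% of tested genes and 19.2% of all windows. Mki67 has 2 CHR matches, Top2a 4 and Kif11 and Cdc20 1 each, while Stil, the member of largest difference in the counts, has CCAAT boxes and no CHR match in its window. CCAAT boxes were found in 14 of 17 mitosis windows (82.4%) and 8 of 13 replication windows (61.5%), against 38.3% of tested genes and 37.4% of all windows. In the wider pathway lists the pattern was alike, with an E2F motif in 28.6% of 42 other replication windows and a CHR motif in 75% of 44 other mitosis windows. These matches describe the sequence and were not tested as binding sites. Some upstream windows fall partly or wholly in annotated exons of the gene or a neighbour. Among them are E2f1, Mcm7 and Tacc3 with all 250 bases, Pcna with 208 and Cdc6 with 81. Of these, Mcm7 and Cdc6 held an E2F match, and E2f1, Pcna and Tacc3 did not. The windows of E2f1, Mcm7 and Cdc6 lie wholly inside the annotated gene.

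**Figure D1:**
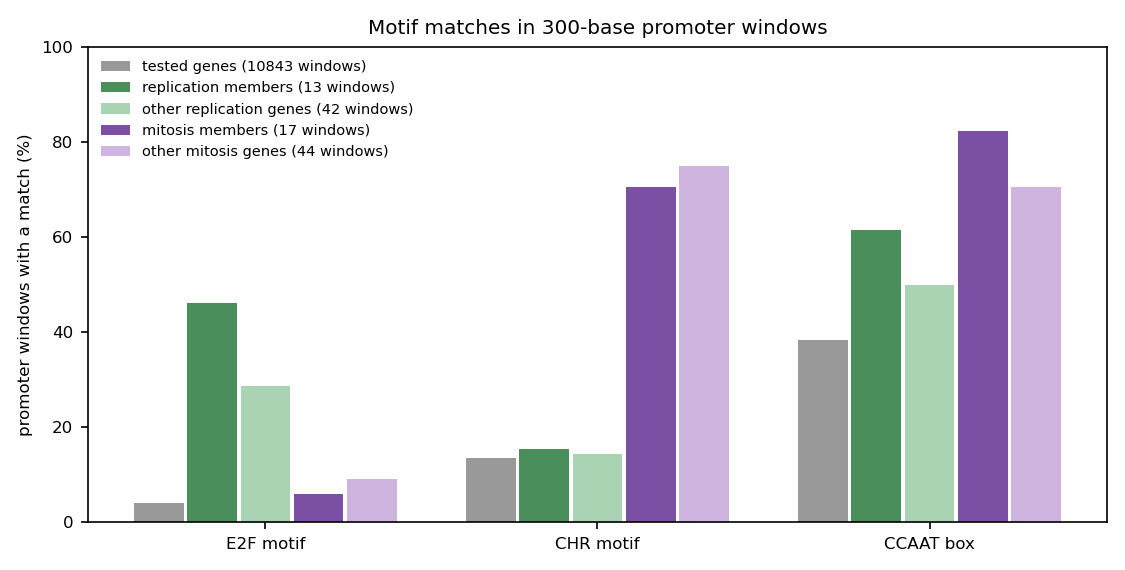
Share of 300-base promoter windows (vertical axis, percent) with at least 1 match to the E2F motif, the CHR motif or the CCAAT box, for all tested genes and for the replication and mitosis genes. The E2F bars are highest for the replication members (46.2%) and the CHR bars for the mitosis lists (70.6% and 75%).

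Total counts were 32397302 to 38611008 in HET and 38510257 to 41234883 in WT. Pkp2 was lower in HET (edgeR quasi-likelihood test, log2 fold change -0.74, adjusted p = 0.00376) and was the single gene called among 14567 tested. The heart muscle genes of the marker list (Myh6, Ttn and 10 others) were present in each library, at a summed 98830 to 104400 CPM in HET and 93630 to 97860 CPM in WT (CPM, counts scaled to a common library size). One library, WT replicate 3, differed from the rest in several marker lists. Its 24 interferon response genes summed to 1467 CPM, against 236.3 to 346.8 CPM elsewhere, its macrophage markers to 590.6 CPM against 387.7 to 466.8 CPM, its lymphocyte markers to 18.5 CPM against 9.76 to 11.4 CPM, and its share of mitochondrially encoded counts was 14.7% against 17.1% to 19.1%. That library was set apart beforehand as the one of highest interferon genes, so its interferon sum is no independent finding. Results below are given with and without it.

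All 37 members passed the filter on low counts, at 5 to 856 counts per library. Per kilobase of annotated exon, replication members (median 1.04 CPM per kb over the 8 libraries) stood above mitosis members (median 0.384 CPM per kb). The length counts every annotated exon of a gene, which can exceed its main transcript, so the order of genes is rough. Pcna, the sliding clamp of the replication fork, was the highest at 7.15 CPM per kb, followed by the helicase subunits Mcm4 (2.68), Mcm7 (2.37) and Mcm3 (2.21). The highest mitosis member was Cdc20 at 0.830 CPM per kb, and the lowest of all were Bub1 (0.0909) and Stil (0.0750). The least covered members, Ccnb1, Bub1 and Stil, held 5 to 45 counts per library.

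No member passed the test over all genes. Most had a lower mean in HET, by more in the mitosis class than in the replication class, a difference between classes that was not tested. By edgeR's quasi-likelihood test 0 of 37 members were called at an adjusted p of 0.05, against 0.00686% of all genes tested (1 of 14567, Pkp2), and DESeq2 and limma-voom also called 0 members. At an unadjusted p under 0.05 by edgeR, 16 members were lower in HET and 0 higher, 12 of the 21 mitosis and 4 of the 16 replication members. Over all genes that share was 3.63% lower and 2.75% higher. Among 7029 other tested genes in the members' range of mean level it was 5.19% lower. Of those genes 365 were lower and 90 higher. The log2 fold change (HET over WT) was below 0 for all 21 mitosis members and for 14 of 16 replication members, against 51.5% of all genes tested, and 62.3% of the 7029 other tested genes in the members' range of mean level (0.396 to 17.2 CPM). The mitosis members shared highs and lows by library (17 of 21 highest in WT replicate 3), so the 21 are not independent observations. The median was -0.77 for mitosis members and -0.22 for replication members, against -0.00 over all genes. For 8 members every HET library lay below every WT library, 6 mitosis members (Tacc3, Stil, Cdc20, Kif11, Top2a and Cenpe) and 2 replication members (Mcm5 and Gins2), against 2.08% of all genes and 2.92% of the other genes in that range of level.

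Without WT replicate 3 the median moved nearer to 0 in the mitosis class and by less in the replication class. The median log2 fold change was -0.52 for the mitosis members (all 21 below 0) and -0.18 for the replication members (14 of 16 below 0), against -0.01 over all genes, and 52.6% of all genes were below 0. At an unadjusted p under 0.05 by edgeR, 10 members were lower and 0 higher, 8 of them mitosis and 2 replication members, against 4.21% of all genes lower, and 0 were called after adjustment (0.00681% of all genes, again Pkp2). The 4 HET libraries lay below the 3 remaining WT libraries for 9 members, 6 mitosis and 3 replication members, against 4.36% of all genes. With the shared digits of the sample titles as a covariate, whose meaning the labels do not give, 7 members rather than 16 were lower at an unadjusted p under 0.05, and the medians were -0.74 (mitosis) and -0.10 (replication).

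**Figure D2:**
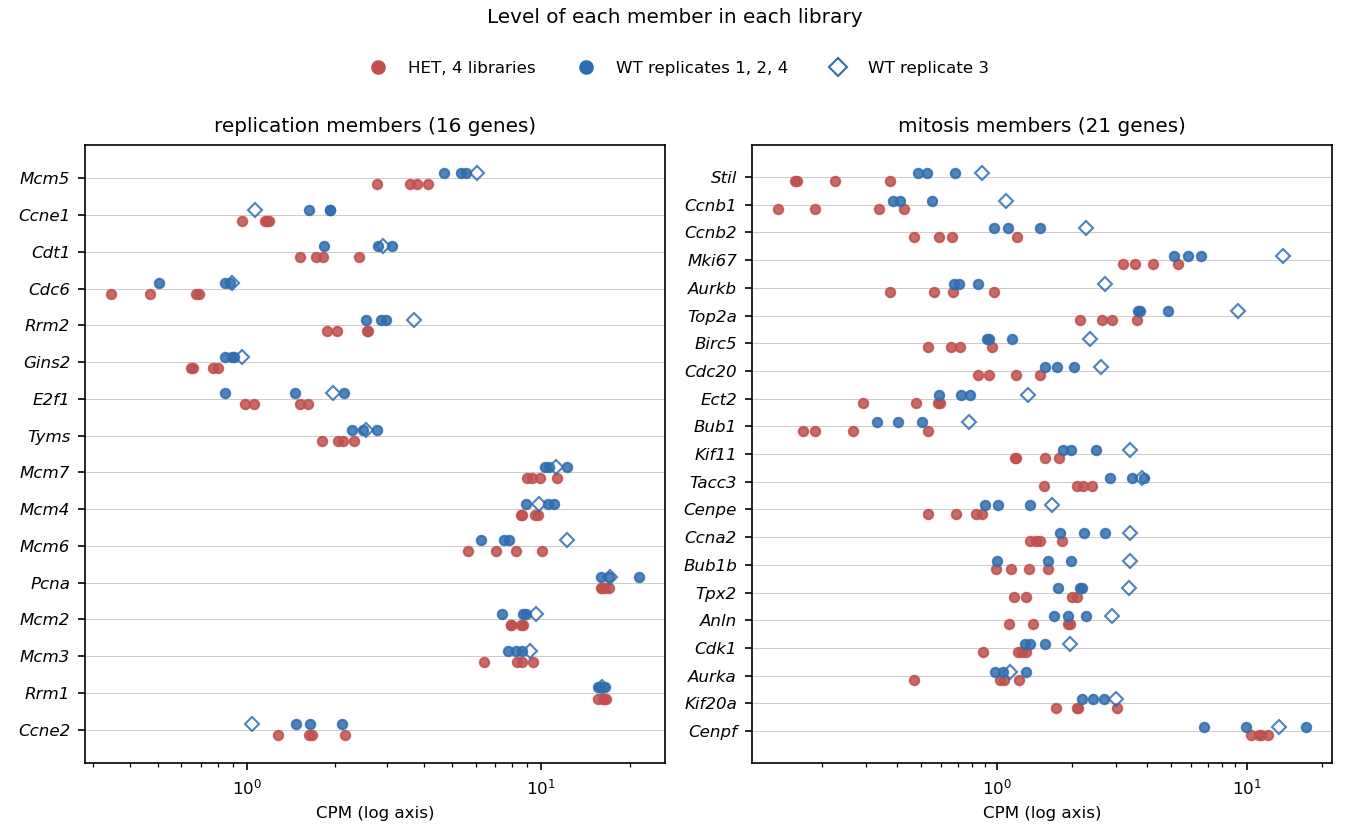
Level of each member in each library in CPM (horizontal log axis), HET in red, WT in blue and WT replicate 3 as an open diamond, with genes ordered by log2 fold change. WT replicate 3 is the rightmost point for 17 of the 21 mitosis members and 6 of the 16 replication members.

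The members of each class were also summed in each library. The 21 mitosis members summed to 40.3, 34.0, 35.9 and 39.2 CPM in HET replicates 1 to 4 and to 42.6, 56.5, 78.7 and 43.2 CPM in WT replicates 1 to 4. The HET libraries lay below all WT libraries, with WT replicates 1 and 4 close above them and WT replicate 3 far above. The sum gives most weight to the members of highest CPM. One of them, Cenpf, stood at 6.75 CPM in WT replicate 1 and 17.2 CPM in WT replicate 2, against 10.4 to 12.2 CPM in HET. The HET mean was 67.6% of the WT mean, and 78.7% without WT replicate 3. The 16 replication members summed to 88.9, 94.8, 88.4 and 91.9 CPM in HET and to 91.9, 106.3, 106.4 and 98.5 CPM in WT. Here the groups overlapped, with WT replicate 1 at the level of HET, and the HET mean was 90.3% of the WT mean (92.0% without WT replicate 3). The ratio of the replication to the mitosis sum was 2.21, 2.79, 2.46 and 2.34 in HET and 2.16, 1.88, 1.35 and 2.28 in WT, lowest in WT replicate 3. Among the libraries that share title digits with WT replicate 1, the mitosis sum was 35.9 to 40.3 CPM in 3 HET libraries and 42.6 CPM in that WT library. In the other such set it was 34.0 CPM in HET replicate 2 and 78.7 and 43.2 CPM in WT replicates 3 and 4. WT replicate 2 shares its digits with no other library.

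Marker lists of other cell types were summed in the same way. WT replicate 3, highest in the mitosis sum, was highest of the 8 libraries for 23 of 37 members, against 16.3% of all genes. It was so for 10 of 12 macrophage markers and 7 of 13 lymphocyte markers. It was also highest for 24 of 24 interferon genes, the genes for which it was set apart beforehand. Macrophage markers summed to 387.7 to 453.1 CPM in HET and 405.4 to 590.6 CPM in WT, and lymphocyte markers to 9.76 to 11.4 CPM and 10.0 to 18.5 CPM. Without WT replicate 3 the HET mean was 100.3% of the WT mean for macrophage and 100.8% for lymphocyte markers. Such sums do not tell cycling cells of a type from resting ones. Endothelial markers summed to 1448 to 1588 CPM in HET and 1460 to 1718 CPM in WT, and fibroblast markers to 1073 to 1330 CPM and 1149 to 1332 CPM, overlapping in both cases. Gene by gene, 8 of 12 endothelial, 9 of 10 fibroblast and 11 of 12 macrophage markers were below 0, against 51.5% of all genes. At an unadjusted p under 0.05 by edgeR, 3, 1 and 2 of them were lower and 0 higher, against 3.63% of all genes lower. The 8 neutrophil markers summed to 2.12 to 3.28 CPM in HET and 1.40 to 4.30 CPM in WT, with the granule genes Mpo (0 counts), Camp and Ngp and the surface marker Ly6g at 3 counts or fewer in each library. The 9 erythroid markers summed to 453.3 to 588.7 CPM in HET and 275.7 to 623.8 CPM in WT, highest in WT replicate 3 and at 121% of the WT mean in HET without it (107.2% with it), although the erythroid factor Klf1 had at most 3 counts in any library. The heart muscle sum was higher in all HET than in all WT libraries (106.5% of the WT mean). The part of these cell types in the members' levels was not tested.

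**Figure D3:**
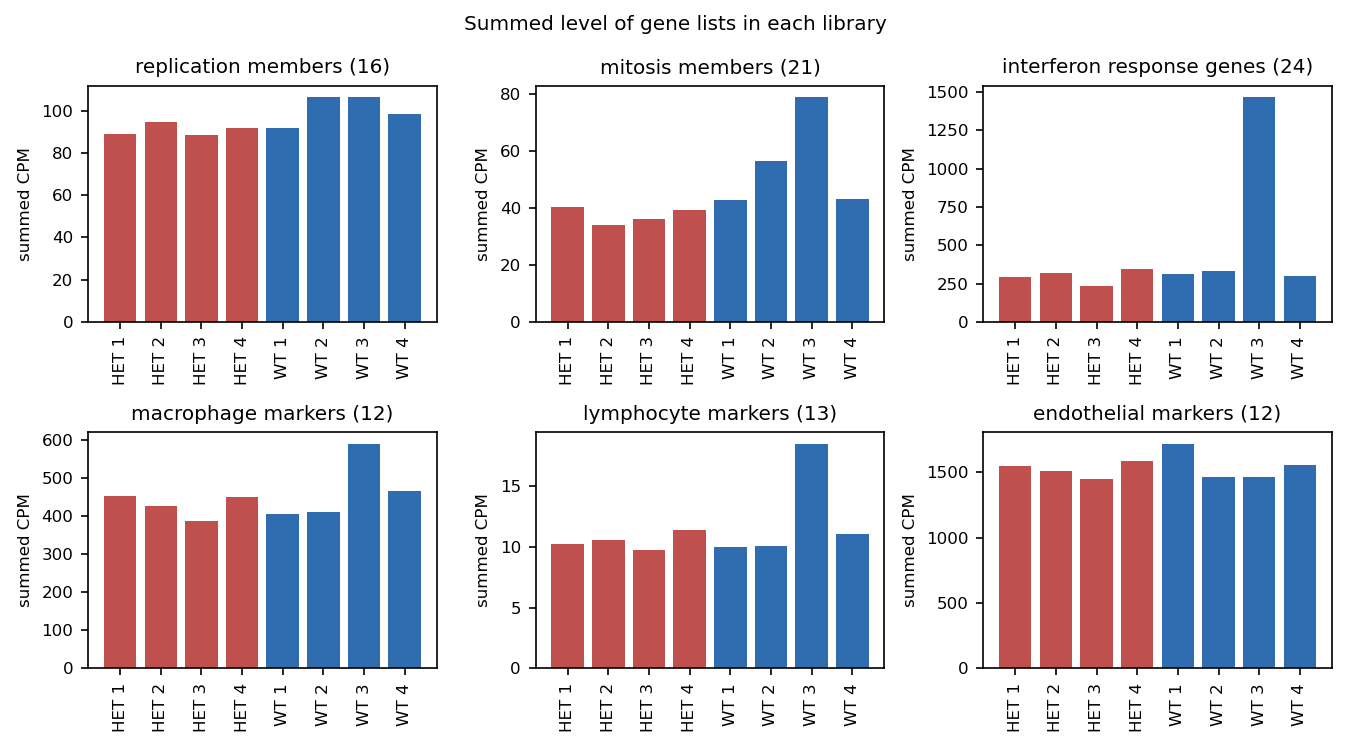
Summed CPM of the 2 member classes and of 4 marker lists in each library (bars from 0, HET red, WT blue, number of genes in brackets). WT replicate 3 is the tallest bar for the mitosis members (78.7 CPM), interferon genes (1467 CPM), macrophage markers (590.6 CPM) and lymphocyte markers (18.5 CPM), and not for endothelial markers.

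Of the 6 subunits of the replicative helicase, Mcm5 had the largest log2 fold change in size, a difference from its partners that was not tested. Mcm5 (ENSMUSG00000005410; chromosome 8, 75109569 to 75128439, plus strand; GRCm38 as for all genes below) stood at 4.13, 2.78, 3.79 and 3.59 CPM in HET and at 5.58, 5.33, 6.04 and 4.69 CPM in WT. Its groups did not overlap. The log2 fold change was -0.60 (SE 0.138, 95% interval -0.90 to -0.29), with an unadjusted p of 0.00126 and an adjusted p of 0.770 in edgeR, and -0.54 without WT replicate 3. The other 5 subunits, which form a ring with Mcm5 in equal parts, had log2 fold changes of -0.17 (Mcm7) to -0.04 (Mcm3), with Mcm4 at -0.15 and Mcm2 at -0.07, all with overlapping groups. That of Mcm6 was -0.13 (95% interval -0.66 to 0.40) and turned to 0.10 without WT replicate 3, which held 12.2 CPM of Mcm6 against 5.64 to 10.0 CPM in the other libraries, and that of Mcm3 turned to 0.06 without HET replicate 3. Exons of Mcm7 overlap those of Ap4m1 and Cops6 on the other strand by 7.3% and 1.4% of their bases, and since the strand setting of the counting is not given, its reads are less certain.

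The licensing factors leaned the same way at low level. Cdt1 (ENSMUSG00000006585; chromosome 8, 122568015 to 122573554, plus strand), which loads the helicase, stood at 1.72, 2.402, 1.81 and 1.52 CPM in HET and 1.83, 2.79, 2.90 and 3.12 CPM in WT. The groups overlapped through WT replicate 1 and HET replicate 2 (edgeR log2 fold change -0.52 with an SE of 0.203, adjusted p = 0.770). Cdc6, the ATPase that acts with Cdt1, had -0.52 (95% interval -1.15 to 0.12) at a mean of 0.544 ± 0.166 CPM for HET against 0.781 ± 0.185 CPM for WT (SD, n = 4 each). At the fork, Pcna (ENSMUSG00000027342; chromosome 2, 132249162 to 132253314, minus strand) held 602, 531, 607 and 606 counts in HET and 665, 856, 709 and 664 counts in WT. Apart from WT replicate 2, at 21.5 CPM, its libraries lay between 15.95 and 17.1 CPM (log2 fold change -0.12, 95% interval -0.32 to 0.07). Gins2, a subunit of the active helicase complex, had -0.33 (95% interval -0.73 to 0.08) with groups that did not overlap, but 67.3% of its exon bases also lie in exons of Gse1 on the other strand.

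Of the regulators of S phase entry, the cyclin gene Ccne1 (ENSMUSG00000002068; chromosome 7, 38097984 to 38107534, minus strand) stood at 1.19, 0.97, 1.17 and 1.15 CPM in HET and 1.63, 1.91, 1.06 and 1.92 CPM in WT. WT replicate 3 lay with the HET libraries, the reverse of its place for mitosis genes. The log2 fold change was -0.54 with an SE of 0.211 (edgeR, adjusted p = 0.770), and -0.70 without WT replicate 3, where the groups did not overlap. Its paralog Ccne2 had 0.10 (95% interval -0.42 to 0.62), and -0.05 without WT replicate 3. E2f1 (ENSMUSG00000027490; chromosome 2, 154559407 to 154569892, minus strand) stood at 1.62, 1.06, 0.99 and 1.52 CPM in HET and 0.84, 2.14, 1.96 and 1.46 CPM in WT. WT replicate 1 was the lowest of all 8 libraries and WT replicate 2 the highest, so the WT range held the whole HET range (log2 fold change -0.30, 95% interval -0.94 to 0.34).

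Of the nucleotide genes, Rrm2 and Tyms had lower means in HET and Rrm1 did not, a contrast that was not tested. Rrm2 (ENSMUSG00000020649; chromosome 12, 24708241 to 24714146, plus strand), the small ribonucleotide reductase subunit that cycles with S phase, stood at 2.57, 2.59, 2.03 and 1.88 CPM in HET and 2.55, 2.87, 3.70 and 2.97 CPM in WT. The groups overlapped through WT replicate 1 (edgeR log2 fold change -0.42 with an SE of 0.165, adjusted p = 0.770). The large subunit Rrm1, which is held more evenly through the cycle, had 0.02 (95% interval -0.10 to 0.14), at a mean of 16.3 ± 0.45 CPM for HET against 16.04 ± 0.41 CPM for WT (SD, n = 4 each). That interval is the narrowest among the members. Tyms (ENSMUSG00000025747; chromosome 5, 30058202 to 30073617, minus strand), thymidylate synthase, stood at 2.12, 1.81, 2.32 and 2.05 CPM in HET and 2.76, 2.49, 2.54 and 2.28 CPM in WT. HET replicate 3 reached into the WT range by a small margin (log2 fold change -0.28, 95% interval -0.58 to 0.02).

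**Figure D4:**
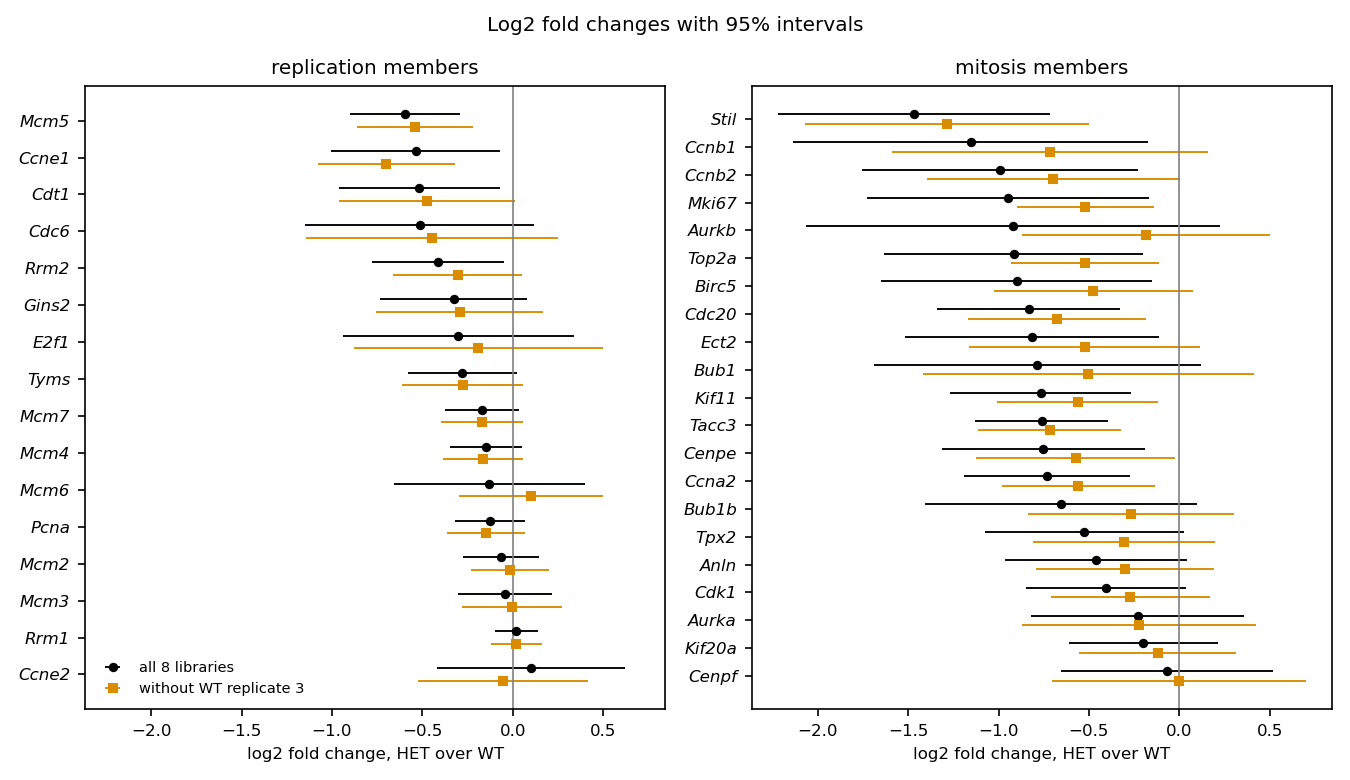
Log2 fold change of each member, HET over WT (horizontal axis), with 95% intervals from edgeR, for all 8 libraries (black circles) and without WT replicate 3 (orange squares). All 21 mitosis members lie below 0 in both fits, and the orange points lie nearer to 0 than the black ones for each of them.

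Of the spindle genes, Tacc3 had the smallest p-value of all members. Tacc3 (ENSMUSG00000037313; chromosome 5, 33658128 to 33678995, plus strand), which stabilises kinetochore microtubules with clathrin and is a substrate of Aurora A, stood at 2.23, 2.402, 1.55 and 2.11 CPM in HET and 2.84, 3.87, 3.82 and 3.48 CPM in WT. Every HET library lay below every WT library, and WT replicate 3 was not the highest. The log2 fold change was -0.76 (SE 0.167, 95% interval -1.13 to -0.39; in edgeR unadjusted p = 8.74e-04, rank 8 of all genes, adjusted p = 0.770), and -0.72 without WT replicate 3. Its adjusted p was 0.0522 with DESeq2 and ran from there to 0.994 over the alternatives. Of its exon bases 8.1% are shared with Tmem129 on the other strand.

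Stil (ENSMUSG00000028718; chromosome 4, 115000159 to 115043196, plus strand), which starts centriole duplication, had the largest difference of the members at the lowest level. It held 6, 5, 14 and 8 counts in HET and 22, 27, 36 and 19 counts in WT, or 0.16, 0.16, 0.37 and 0.22 CPM against 0.53, 0.68, 0.87 and 0.49 CPM. The groups did not overlap (edgeR log2 fold change -1.47 with an SE of 0.341, 95% interval -2.22 to -0.71, adjusted p = 0.770; -1.29 without WT replicate 3). Kif11 (ENSMUSG00000012443; chromosome 19, 37376403 to 37421859, plus strand), the kinesin that pushes spindle poles apart, stood at 1.56, 1.19, 1.20 and 1.77 CPM in HET and 2.50, 1.99, 3.41 and 1.84 CPM in WT. HET replicate 4 and WT replicate 4 nearly met (edgeR log2 fold change -0.77 with an SE of 0.227, adjusted p = 0.770; -0.56 without WT replicate 3). Tpx2, which activates Aurora A on the spindle, had -0.53 (95% interval -1.08 to 0.03).

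The cyclins and their kinase all had lower means in HET. Ccna2 (ENSMUSG00000027715; chromosome 3, 36564865 to 36572150, minus strand), the cyclin of S and G2 phase, stood at 1.43, 1.498, 1.36 and 1.82 CPM in HET and 2.24, 2.72, 3.41 and 1.79 CPM in WT. HET replicate 4 lay just above WT replicate 4, and the other libraries were apart (edgeR log2 fold change -0.73 with an SE of 0.208, adjusted p = 0.770; -0.56 without WT replicate 3). The mitotic cyclins Ccnb1 and Ccnb2 had -1.16 (95% interval -2.14 to -0.17) and -0.99 (-1.76 to -0.23), and -0.72 and -0.70 without WT replicate 3, on only 5 to 45 counts per library for Ccnb1. Cdk1 (ENSMUSG00000019942; chromosome 10, 69335146 to 69352938, minus strand), the kinase they activate, stood at 1.22, 1.31, 0.88 and 1.26 CPM in HET and 1.30, 1.36, 1.96 and 1.56 CPM in WT. The groups crossed at HET replicate 2 and WT replicate 1 (log2 fold change -0.40, 95% interval -0.85 to 0.04).

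Of the checkpoint genes, Cdc20 had the smallest p-value. Cdc20 (ENSMUSG00000006398; chromosome 4, 118432901 to 118437352, minus strand), the activator of the anaphase-promoting complex, stood at 1.19, 0.84, 0.93 and 1.49 CPM in HET and 2.04, 1.74, 2.61 and 1.56 CPM in WT. Its groups did not overlap (edgeR log2 fold change -0.83 with an SE of 0.229, adjusted p = 0.770; -0.68 without WT replicate 3). The checkpoint kinase Bub1 and its relative Bub1b had -0.79 (95% interval -1.69 to 0.12) and -0.65 (-1.41 to 0.10), and -0.50 and -0.27 without WT replicate 3.

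Mki67 (ENSMUSG00000031004; chromosome 7, 135689784 to 135716361, minus strand), the Ki-67 antigen used to mark cycling cells, stood at 5.30, 3.21, 3.57 and 4.24 CPM in HET and 5.84, 6.59, 13.9 and 5.12 CPM in WT. WT replicate 3 held more than any other library by far, and HET replicate 1 lay above WT replicate 4. The log2 fold change was -0.95 with an SE of 0.339 (edgeR, adjusted p = 0.770), and -0.52 without WT replicate 3. Top2a (ENSMUSG00000020914; chromosome 11, 98992943 to 99024189, minus strand), the topoisomerase that untangles sister chromatids, stood at 3.66, 2.15, 2.91 and 2.64 CPM in HET and 3.68, 4.83, 9.23 and 3.74 CPM in WT. WT replicate 3 was again the highest, and HET replicate 1 and WT replicate 1 were nearly equal (edgeR log2 fold change -0.92 with an SE of 0.316, adjusted p = 0.770; -0.52 without WT replicate 3).

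Of the 8 remaining mitosis members, Aurka, Aurkb, Cenpf, Anln and Kif20a had 95% intervals that held 0 with all 8 libraries, and those of Birc5 and Ect2 held 0 once WT replicate 3 was left out. Aurkb, the Aurora kinase of the chromosomal passenger complex, had -0.92 with all 8 libraries and -0.19 without WT replicate 3. Its partner Birc5 (survivin) had -0.90 and -0.48, and Aurka -0.23 and -0.22. The kinetochore motor Cenpe had -0.75 (95% interval -1.31 to -0.19) with groups that did not overlap, and -0.57 without WT replicate 3. Cenpf, the second kinetochore gene, had -0.07 (95% interval -0.65 to 0.52), with WT libraries at 6.75 to 17.2 CPM around HET libraries at 10.4 to 12.2 CPM. The cytokinesis genes Ect2, Anln and Kif20a had -0.82, -0.46 and -0.20, and -0.52, -0.30 and -0.12 without WT replicate 3, and 29.3% of the exon bases of Kif20a also belong to Cdc23 on the other strand. Smaller overlaps of this kind were found for Ccne2 with Ints8 (17.4%), Ccna2 with Exosc9 (12.5%) and Cdc20 with Elovl1 (2.8%).

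The rest of the pathway was read from lists drawn up by textbook role, but with earlier results of these data known. Their counts are therefore no independent check on the members. Of 46 tested genes among 50 other mitosis genes, 0 were called by edgeR, 17 were lower and 0 higher at an unadjusted p under 0.05, and 44 were below 0 (median -0.59). Of all genes, 3.63% were lower at that threshold and 51.5% were below 0. Without WT replicate 3, 8 were lower and 0 higher at that threshold, against 4.21% of all genes lower, and the median was -0.34. Their smallest p-values belonged to Ncaph, a condensin subunit (1.09 ± 0.08 CPM for HET against 1.89 ± 0.51 CPM for WT), and to the chromosome-arm kinesin Kif22 (0.714 ± 0.037 and 1.22 ± 0.27 CPM; SD, n = 4 each). Of 48 tested among 50 other replication genes, 0 were called, 7 were lower and 0 higher at an unadjusted p under 0.05, and 38 were below 0 (median -0.11), against 3.63% and 51.5% of all genes lower and below 0. Without WT replicate 3, 4 were lower and 0 higher, against 4.21% of all genes lower, and the median was -0.10. Their smallest p-values belonged to the chromatin assembly subunit Chaf1b (log2 fold change -0.93, SE 0.288) and the primase partner Pola2 (-0.23, SE 0.077).

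Upstream regulators were read from a further pair of lists. Of 17 tested genes of G1 control and arrest, 0 were called by edgeR, and 3 were lower and 1 higher at an unadjusted p under 0.05 (median -0.05), against 3.63% of all genes lower and 2.75% higher, and the counts were again 3 and 1 without WT replicate 3. The smallest p-values of that list belonged to Ccnd1, cyclin D1, and to Ccng1. Ccnd1 had a mean of 66.3 ± 6.1 CPM for HET against 80.4 ± 6.3 CPM for WT, with groups that did not overlap (log2 fold change -0.28, SE 0.076). Ccng1 stood at 938.7 ± 52.2 and 843.0 ± 34.1 CPM, also without overlap (0.16, SE 0.052). Of 17 E2F and DREAM regulators, 0 were called, with 2 lower and 2 higher at an unadjusted p under 0.05 (median -0.03), against the same shares of all genes. Without WT replicate 3, 2 were lower and 0 higher, against 4.21% of all genes lower, and the median was 0.01. The pocket protein gene Rbl1 had -0.52 (SE 0.174) and E2f2, an activator, -0.85 (SE 0.288), and both are known to be transcribed with the cell cycle themselves.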

How the data were processed

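The deposited table holds read counts per gene, whole numbers that the authors did not normalise. The tools listed in the submitters' processing notes are STAR (2.4.2a) for GRCm38/mm10 and HTSeq (0.6.1). The annotation release and strand setting are not given in the sources used here. Symbols were matched by Ensembl identifier for 36345 of 38293 genes, and the rest held 0.143% of the counts. Positions and exon lengths came from GENCODE M21 (GRCm38), and promoters from RefSeq (GRCm38.p6).

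Counts were tested with edgeR 4.0.16 in R 4.3.3: filterByExpr (14567 genes kept), TMM scaling, quasi-likelihood test, Benjamini-Hochberg adjustment over all genes, threshold 0.05. Standard errors come from the F statistic, and CPM uses TMM-scaled library sizes. The common coefficient of biological variation was 0.143. The script was tested on simulated data. The alternatives tried were scaling by RLE, by upper quartile or by library size, an open filter, a filter of 1 CPM in 4 samples, DESeq2 1.42.0, limma-voom (limma 3.58.1) with sample weights, the title digits as covariate, and leaving out each library. The members and lists were chosen with earlier results of these data known. All 37 members are named, the 5 of smallest p per class and 5 fixed ones (Mki67, Top2a, Pcna, Cdk1, E2f1) in full. In each of 4 pathway lists the 2 genes of smallest p are named.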

Additional observations from a re-analysis of the deposited data

Results flagged for a closer look

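Several values within a group of 4 lay apart from the other 3 by more than the 95% critical value of Dixon's test. Of 96 such groups 6 did so, and chance gives about 1 in 20. In WT replicate 3, Mki67 was at 13.9 CPM against 5.12 to 6.59 CPM in the other WT libraries, Aurkb at 2.71 CPM against 0.673 to 0.845 CPM, Birc5 at 2.37 CPM against 0.913 to 1.15 CPM, and Chaf1b at 1.35 CPM against 0.704 to 0.769 CPM. The same library was the lowest WT library for Pkp2, at 148.5 CPM against 165.7 to 169.1 CPM. In WT replicate 1, Cdc6 was at 0.505 CPM against 0.845 to 0.894 CPM in the other WT libraries.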

How the results depend on the processing

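In each of the 16 alternatives 0 members were called, and of 583 member values under them 572 kept their sign. Those values refit the same genes on the same libraries and are not independent. The medians of the member classes were below 0 in each alternative: -0.88 to -0.52 for mitosis and -0.27 to -0.10 for replication. The replication median was -0.10 with the title digits as covariate, outside the spread between libraries. Leaving out 1 library gave -0.88 to -0.52 for mitosis, -0.25 to -0.18 for replication, -0.71 to -0.34 for the other mitosis genes, -0.13 to -0.08 for the other replication genes, and 1 to 3 genes called (3 without HET replicate 3). The median of the other replication genes was -0.16 with library-size scaling, -0.068 with the 1 CPM filter and -0.050 with the title digits, and that of the other mitosis genes -0.32 with the 1 CPM filter, which tests fewer genes. DESeq2 called 13 genes and the fit with no filter 2. Signs turned for 6 members, of which E2f1 had -0.30 with all 8 libraries. Rrm1 was -0.022 with library-size scaling, and Cenpf 0.062 with limma-voom. With the title digits Cenpf was 0.36, Mcm3 0.0073, Mcm6 0.092 and E2f1 0.037. Leaving out 1 library gave -0.26 (without WT replicate 1) to 0.17 (without WT replicate 2) for Cenpf, -0.12 to 0.057 (without HET replicate 3) for Mcm3, -0.28 to 0.10 (without WT replicate 3) for Mcm6 and -0.054 (without WT replicate 3) to 0.28 for Ccne2, which was -0.03 without HET replicate 2. The cause was not tested. No paired analysis was possible because replicate numbers were given in order of deposition and pair nothing. Low counts limit precision: the 95% interval of Stil spans -2.22 to -0.71.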
